A study of Homo sapiens with 6 samples.

Results

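The core glycolysis enzymes described here are 10 genes, HK2, GPI, PFKP, ALDOA, TPI1, PGK1, PGAM1, ENO1, PKM and LDHA, chosen by their symbols in the deposited tables. All 10 were found, among 21503 genes of the count table, and all 10 were among the 19430 genes that passed the filter on low counts. They were measured by bulk RNA-seq in UMUC3 cells, a human line from a bladder carcinoma, in 3 libraries with knockdown of GANAB and 3 control libraries. Both groups had been transplanted into the bladders of C57 nude mice and grown there for 14 days, so each library could also hold RNA of mouse host cells. GANAB encodes the catalytic subunit of glucosidase II, which trims glucose from newly made N-glycans in the endoplasmic reticulum. The labels give neither the method of the knockdown nor the animals behind each library, so the p-values speak only of the variation among these 6 samples, part or all of which may be technical.

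Glycolysis splits a molecule of glucose into pyruvate in the cytosol and yields ATP and NADH. Its upper part spends ATP to build and cleave fructose 1,6-bisphosphate, its lower part regains ATP, and lactate dehydrogenase then restores NAD+ by turning pyruvate into lactate. Cancer cells commonly run this pathway at a high rate even in the presence of oxygen, and several of its genes are known targets of the hypoxia-inducible factors and of MYC.

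Library facts that bear on these genes were as follows. Totals were 36619291 to 40039584 estimated counts in knockdown and 11737837 to 36381218 in control libraries. GANAB, the targeted gene, averaged 233 ± 4.10 CPM in knockdown and 724 ± 88.6 CPM in control libraries (SD, n = 3 each; log2 fold change -1.63, edgeR adjusted p = 0.00239). CPM here means counts scaled to library totals with TMM factors, and TPM is the deposited value scaled for transcript length and library total. Mitochondrially encoded genes held 9.76 to 10.9% of the TPM of knockdown libraries, against 35.6, 6.81 and 3.33% in control libraries 1, 2 and 3; TPM of other genes in control library 1 is lower by that share. The biological coefficient of variation was 10.7% in knockdown and 52.3% in control libraries. Of the epithelial markers, KRT18 was well detected (201 TPM in knockdown and 169 TPM in control libraries), while EPCAM, CDH1, KRT20 and UPK3A averaged under 1 TPM; 1 of the 11 tested genes of this list, UPK1A, was called higher.

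Host marker lists moved with the groups in part. The smooth muscle list summed to 971 to 1035 TPM in knockdown and 253 to 468 TPM in control libraries, with 4 of 9 genes higher in the knockdown (edgeR). The fibroblast list summed to 111 to 123 TPM in knockdown and 42.9 to 119.6 TPM in control libraries, with 1 of 7 tested genes higher. The endothelial list summed to 2.87 to 4.59 TPM in knockdown and 0.399 to 1.73 TPM in control libraries, and the leukocyte list, most of it CD68, to 46.9 to 51.4 TPM in knockdown and 55.2 to 210.4 TPM in control libraries, with 0 of 6 and 0 of 5 tested genes called (edgeR). Of 6 skeletal muscle and 2 erythroid markers tested, 0 were called. Averages under 1 TPM held for 7 of 8 endothelial, 9 of 11 leukocyte (PTPRC among them), 8 of 10 skeletal muscle and all 6 adipocyte markers. The part of host RNA in the results below was not tested, and in bulk RNA fewer cells of a type and less RNA per cell cannot be told apart.

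All 10 enzyme genes had lower CPM in each knockdown library than in any control library, and 3 of them, HK2, ENO1 and LDHA, passed the test as lower, while none passed as higher (edgeR quasi-likelihood test, Benjamini-Hochberg adjusted over all genes, threshold 0.05). Among all 19430 genes tested, 8.31% were called, 3.72% lower and 4.59% higher. The groups did not overlap in CPM for 37.6% of all genes, with the knockdown below every control for 15.7%. The log2 fold changes of knockdown over control ran from -2.69 for LDHA to -0.52 for PFKP, with a median of -0.94, against a median of 0.03 over all genes tested. The count of 3 depended on the libraries and the test. It was 0 without any 1 of the knockdown libraries. Of all genes, only 9, 33 and 18 were called lower without knockdown library 1, 2 and 3, against 722 with all libraries. The count was 3 without control library 1, where 662 of all genes were called lower. It was 7 without control library 2 (13.8% of all genes called lower) and 5 without control library 3 (4.28%). It was 7 by DESeq2 (8.40% of all genes) and 7 by limma-voom with quality weights for each group (4.67%), and 4 where genes needed at least 5 CPM (7.13%). It was 2 with the replicate number as a block (1.10%), and on the TPM scale 1 of the 10 passed with a pseudocount of 1 (0.494%) and 1 with a pseudocount of 0.1 (0.359%).

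**Figure D1:**
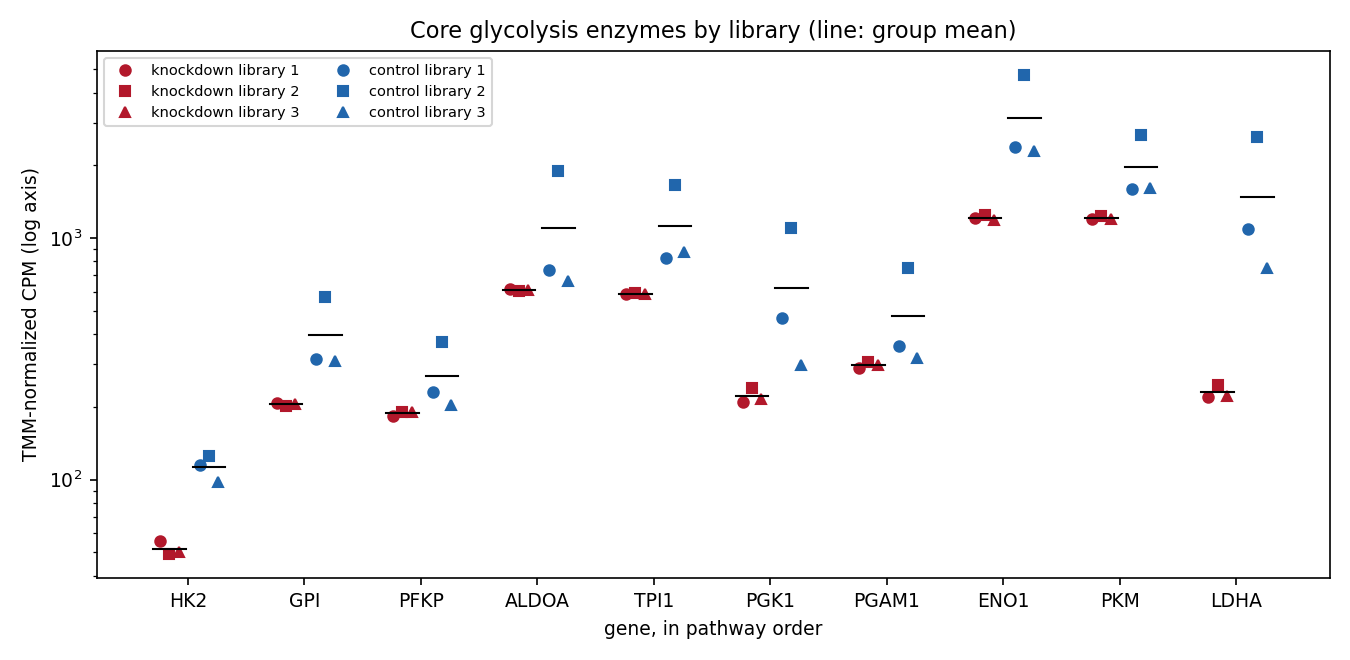
TMM-normalized CPM of the 10 enzyme genes (log axis) in 3 knockdown libraries (red) and in 3 control libraries (blue), with a line at each group mean. The knockdown points lie close together and below every control point of the same gene, and control library 2 is the highest control for all 10 genes.

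The upper part of the pathway begins with hexokinase, which phosphorylates glucose on entry. HK2 is its inducible isozyme, bound to the outer mitochondrial membrane in many tumours (ENSG00000159399, chromosome 2, 74833981 to 74893359, plus strand, GRCh38). HK2 stood at 55.4, 49.2 and 50.1 CPM in knockdown libraries 1, 2 and 3, against 115, 125 and 97.4 CPM in control libraries 1, 2 and 3. The groups did not overlap, and HK2 fell to 45.8% of control in the fit (log2 fold change -1.13, SE 0.144, edgeR adjusted p = 0.00807). HK2 had the smallest spread among controls of the 10 genes, with its highest control library 1.29 times its lowest. Leaving out knockdown library 1, 2 or 3 gave an edgeR adjusted p of 0.0712, 0.0814 and 0.0884 for HK2, with log2 fold changes of -1.09 to -1.18.

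GPI, which isomerizes glucose 6-phosphate (ENSG00000105220, chromosome 19, 34359480 to 34402413, plus strand), and PFKP, the platelet-type subunit of phosphofructokinase, the main control point of the pathway (ENSG00000067057, chromosome 10, 3066333 to 3137712, plus strand), did not pass. GPI stood at 207, 201 and 206 CPM in knockdown libraries 1, 2 and 3, against 314, 569 and 308 CPM in control libraries 1, 2 and 3 (log2 fold change -0.96, SE 0.249, edgeR adjusted p = 0.0571). GPI passed without control library 2, where the fold was smaller and the controls closer together (log2 fold change -0.60, edgeR adjusted p = 0.00122). PFKP stood at 183, 189.6 and 191 CPM in knockdown libraries 1, 2 and 3, against 229.7, 373 and 204 CPM in control libraries 1, 2 and 3 (log2 fold change -0.52, SE 0.230, edgeR adjusted p = 0.207). The 95% interval of the PFKP log2 fold change was -1.05 to 0.02, and its lowest control, library 3, lay just above the highest knockdown value. Without control library 2 the PFKP log2 fold change was -0.20 (edgeR adjusted p = 0.111).

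ALDOA, the muscle-type aldolase that cleaves fructose 1,6-bisphosphate (ENSG00000149925, chromosome 16, 30064164 to 30070457, plus strand), and TPI1, which interconverts the resulting triose phosphates (ENSG00000111669, chromosome 12, 6867119 to 6870948, plus strand), did not pass either. ALDOA stood at 613, 605 and 609.5 CPM in knockdown libraries 1, 2 and 3, against 734, 1895 and 665 CPM in control libraries 1, 2 and 3 (log2 fold change -0.85, SE 0.386, edgeR adjusted p = 0.215). Control library 2 carried most of the ALDOA difference: without it the log2 fold change was -0.20 (edgeR adjusted p = 0.125). TPI1 stood at 585, 593 and 585 CPM in knockdown libraries 1, 2 and 3, against 824, 1653 and 878 CPM in control libraries 1, 2 and 3 (log2 fold change -0.93, SE 0.271, edgeR adjusted p = 0.0773). Without control library 2 the TPI1 log2 fold change was -0.53 and passed (edgeR adjusted p = 0.00295).

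The step between them and the lower part, catalysed by GAPDH, is not among the 10 genes but completes the pathway. GAPDH stood at 3697, 3580.0 and 3647 CPM in knockdown libraries 1, 2 and 3, against 5349, 9339 and 6418 CPM in control libraries 1, 2 and 3. GAPDH fell, with no overlap of the groups on CPM (log2 fold change -0.95, SE 0.220, edgeR adjusted p = 0.0419), while on TPM the groups overlapped. It passed with any 1 control library left out (edgeR adjusted p = 0.00349 to 0.0458). It did not pass with 1 knockdown library left out (edgeR adjusted p = 0.201 to 0.208) or with the replicate number as a block (edgeR adjusted p = 0.0922). On log2(TPM + 1) it did not pass either (limma adjusted p = 0.427).

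In the lower part, PGK1, which forms the first ATP of the payoff (ENSG00000102144, chromosome X, 77910739 to 78129296, plus strand), had the second largest difference of the 10 genes without passing. PGK1 stood at 209, 239.5 and 216 CPM in knockdown libraries 1, 2 and 3, against 468, 1104 and 297 CPM in control libraries 1, 2 and 3 (log2 fold change -1.49, SE 0.438, edgeR adjusted p = 0.0784). The control values were 3.72-fold apart, the widest of the 10 genes. PGK1 passed without control library 2 (log2 fold change -0.79, edgeR adjusted p = 0.0156) and without control library 3 (-1.88, edgeR adjusted p = 0.0313).

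PGAM1, the phosphoglycerate mutase of most tissues (ENSG00000171314, chromosome 10, 97426160 to 97433441, plus strand), was among the genes of smallest difference. PGAM1 stood at 289, 308 and 297 CPM in knockdown libraries 1, 2 and 3, against 357, 748 and 319 CPM in control libraries 1, 2 and 3 (log2 fold change -0.67, SE 0.314, edgeR adjusted p = 0.229). Its 95% interval was -1.41 to 0.06, and without control library 2 the log2 fold change was -0.18.

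ENO1, the enolase that makes phosphoenolpyruvate (ENSG00000074800, chromosome 1, 8861000 to 8879250, minus strand), fell 2.58-fold and was the most abundant of the 10 per length in both groups. ENO1 stood at 1212, 1243 and 1192 CPM in knockdown libraries 1, 2 and 3, against 2377, 4748 and 2287 CPM in control libraries 1, 2 and 3 (log2 fold change -1.37, SE 0.292, edgeR adjusted p = 0.0322). Control libraries 1 and 3 lay near each other, and control library 2 far above both. ENO1 fell 1.91-fold without control library 2 (edgeR adjusted p = 0.000415), and its edgeR adjusted p was 0.158 to 0.170 with 1 knockdown library left out and 0.0525 with the replicate number as a block.

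PKM, the pyruvate kinase gene that makes both the M1 and the M2 isoform by alternative splicing (ENSG00000067225, chromosome 15, 72199029 to 72231822, minus strand), did not pass. PKM stood at 1203, 1229.8 and 1199 CPM in knockdown libraries 1, 2 and 3, against 1589.6, 2683 and 1612 CPM in control libraries 1, 2 and 3 (log2 fold change -0.70, SE 0.224, edgeR adjusted p = 0.0985). The tables hold gene totals, so the isoforms were not separated here. Without control library 2 the PKM log2 fold change was -0.40 and passed (edgeR adjusted p = 0.0107).

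LDHA, which encodes the muscle-type subunit of lactate dehydrogenase, the form associated with lactate production (ENSG00000134333, chromosome 11, 18394388 to 18408425, plus strand), had the largest fall of the 10 genes. LDHA stood at 220.4, 246 and 222 CPM in knockdown libraries 1, 2 and 3, against 1093, 2612 and 750.1 CPM in control libraries 1, 2 and 3. Each control library lay far above every knockdown library, and the controls themselves lay 3.48-fold apart. LDHA was 6.47-fold lower in the knockdown (log2 fold change -2.69, SE 0.443, edgeR adjusted p = 0.0158; 95% interval -3.73 to -1.66). It was 4.01-fold lower without control library 2, 7.57-fold without control library 1 and 8.39-fold without control library 3, and passed each time (edgeR adjusted p = 0.000236, 0.0354 and 0.0115). With 1 knockdown library left out it did not pass, at an edgeR adjusted p of 0.0992 to 0.114, while the fold stayed between 6.33 and 6.70.

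**Figure D2:**
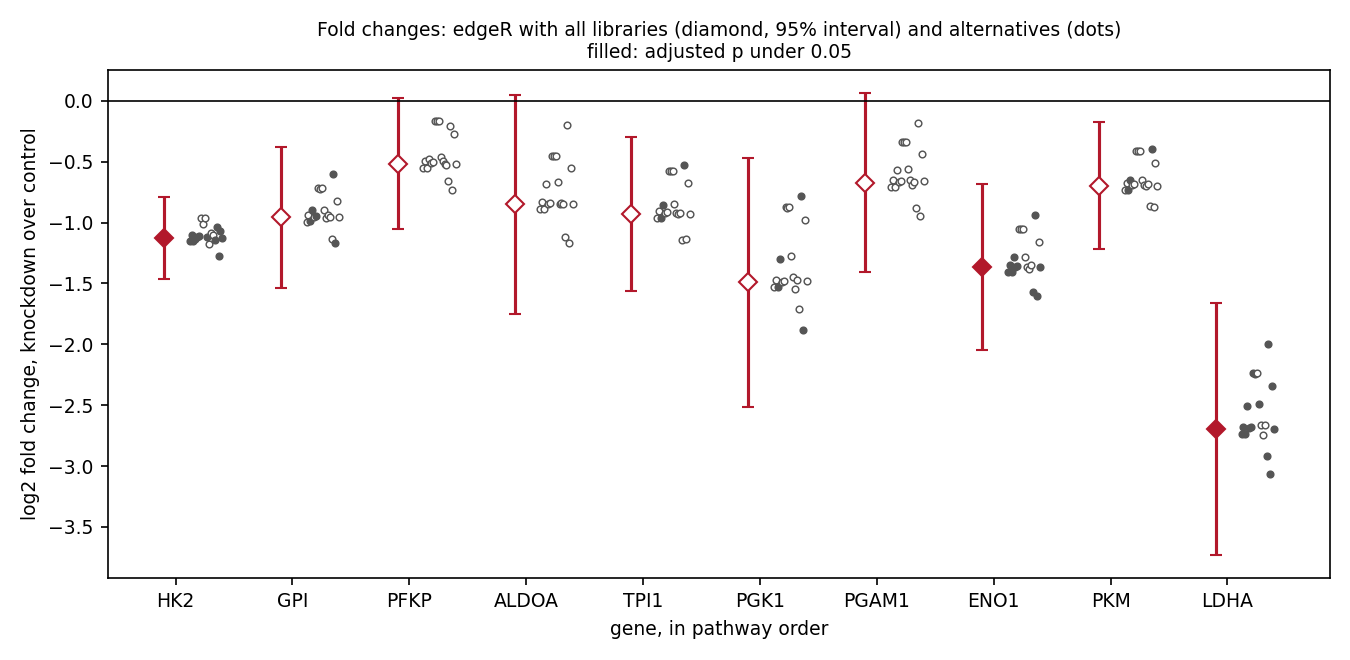
Log2 fold change of knockdown over control for each enzyme gene, from edgeR with all 6 libraries (red diamonds, bars are 95% intervals) and from 18 alternatives (dots, in the order of the alternatives); filled symbols have an adjusted p under 0.05. Every symbol lies below 0, LDHA lies lowest, and PFKP, ALDOA and PGAM1 have no filled symbol.

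The 10 genes had a similar shape over the libraries, which the choice by symbol did not use and which genes outside the 10 also had. Control library 2 was the highest control for all 10 genes, and control library 3 the lowest for 8. For TPI1 and PKM the lowest was control library 1, by a small margin. The share of all genes with this order is not given here. Outside the 10, GAPDH and PFKL were also highest in control library 2 among controls, while HK1 and MYC were lowest there. The median coefficient of variation of the 10 genes was 2.23% in knockdown and 42.97% in control libraries, against 8.89% and 35.2% over all genes tested. All genes tested include many of lower counts than the enzymes, and genes of like abundance were not compared. The mean profile, each gene's log2 CPM centred on its own mean, stood at -0.52, -0.49 and -0.53 in knockdown libraries 1, 2 and 3 and at 0.26, 1.20 and 0.08 in control libraries 1, 2 and 3. GPI lay closest to this mean profile (root mean square difference 0.0999 log2 units) and LDHA farthest (0.758). Control libraries 1, 2 and 3 held 36381218, 17942832 and 11737837 counts, and the part of depth in this order was not tested. Among 9864 other genes with a symbol and a mean of at least 10 CPM, the 5 with the profile nearest to the mean of the enzymes were IRAK1 (0.0216), TUBB6 (0.0412), TUBG1 (0.0516), PLIN2 (0.0589) and GEMIN4 (0.0672), with the root mean square difference in log2 units over the 6 libraries in parentheses. All 5 lay closer to that mean than any of the enzymes did, so the profile is not particular to them.

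**Figure D3:**
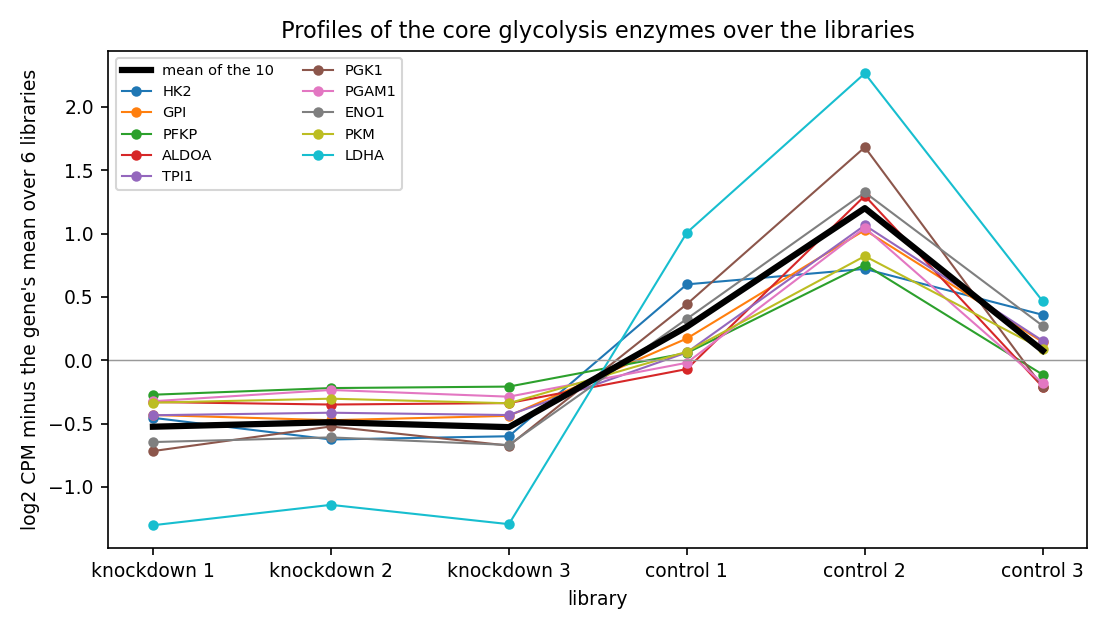
Log2 CPM of each enzyme gene minus its own mean, over the 3 knockdown and 3 control libraries, with the mean of the 10 genes in black. The knockdown values are flat, the control values peak in library 2, and LDHA spans the widest range, while ALDOA, PFKP, PGAM1 and PGK1 fall below 0 in control library 3.

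Because many of these genes are known targets of hypoxia-inducible factors, which bind the cores ACGTG and GCGTG, and of MYC, which binds CACGTG, their promoter windows were searched for these letters on both strands; each CACGTG also holds ACGTG on both strands. RefSeq windows of 300 bases, 250 before and 50 after each start (GRCh38.p14), were given for all 10 genes, 18 windows in all. ACGTG or GCGTG was found in 14 of 18 windows (77.8%), against 17012 of 35116 windows of all genes (48.4%), and CACGTG in 3 of 18 (16.7%) against 2548 of 35116 (7.26%). The windows of the enzymes also had a higher median GC content (69.8%, against 58.7% for all windows), and windows of 1 gene can share bases, so the shares are given as a description. The windows with the most matches are given for the 3 genes that fell, for PGK1, which had the largest difference among the others, and for PGAM1, the gene with no match in its only window. They lie at chr11:18394313-18394612, plus strand (LDHA), chr2:74834920-74835219, plus strand (HK2), chr1:8878637-8878936, minus strand (ENO1), chrX:78103998-78104297, plus strand (PGK1) and chr10:97427568-97427867, plus strand (PGAM1). Capitals mark ACGTG and GCGTG or, where the match is on the other strand, CACGT and CACGC.
LDHA: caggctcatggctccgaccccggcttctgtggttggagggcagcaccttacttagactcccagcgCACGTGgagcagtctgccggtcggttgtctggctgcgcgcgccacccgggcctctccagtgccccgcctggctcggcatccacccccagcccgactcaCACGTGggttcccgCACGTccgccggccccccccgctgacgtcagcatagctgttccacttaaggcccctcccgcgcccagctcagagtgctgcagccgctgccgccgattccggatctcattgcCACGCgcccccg
HK2: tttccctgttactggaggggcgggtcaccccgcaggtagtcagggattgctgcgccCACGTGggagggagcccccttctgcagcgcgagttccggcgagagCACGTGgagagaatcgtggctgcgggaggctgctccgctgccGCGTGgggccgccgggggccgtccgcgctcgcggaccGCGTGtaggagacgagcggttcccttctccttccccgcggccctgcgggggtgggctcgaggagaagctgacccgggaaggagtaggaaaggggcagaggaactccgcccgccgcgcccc
ENO1: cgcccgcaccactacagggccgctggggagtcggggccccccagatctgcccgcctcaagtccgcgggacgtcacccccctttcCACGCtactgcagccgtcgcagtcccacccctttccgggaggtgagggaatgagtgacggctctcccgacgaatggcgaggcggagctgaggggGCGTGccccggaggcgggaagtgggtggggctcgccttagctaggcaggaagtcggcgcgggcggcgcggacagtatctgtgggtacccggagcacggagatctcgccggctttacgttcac
PGK1: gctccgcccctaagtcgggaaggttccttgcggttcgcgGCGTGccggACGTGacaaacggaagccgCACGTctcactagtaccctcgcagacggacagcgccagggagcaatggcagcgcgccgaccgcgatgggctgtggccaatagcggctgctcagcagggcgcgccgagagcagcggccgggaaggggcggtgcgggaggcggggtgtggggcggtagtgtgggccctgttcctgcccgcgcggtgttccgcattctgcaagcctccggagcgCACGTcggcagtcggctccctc
PGAM1: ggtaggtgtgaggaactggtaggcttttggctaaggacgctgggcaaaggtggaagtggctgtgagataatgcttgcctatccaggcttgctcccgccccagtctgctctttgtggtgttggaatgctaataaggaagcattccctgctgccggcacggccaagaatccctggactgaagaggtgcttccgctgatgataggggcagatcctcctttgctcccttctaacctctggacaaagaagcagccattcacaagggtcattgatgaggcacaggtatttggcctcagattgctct
The LDHA window held 6 matches and 2 copies of CACGTG, the HK2 window 6 matches and 2 copies of CACGTG, the PGK1 window 4 matches, the ENO1 window 2 and the PGAM1 window 0, where a CACGTG counts as 2 matches. Among the other genes, none of which passed, the most in 1 window was 3 for PFKP and 2 for TPI1. It was 2 for ALDOA, from 1 CACGTG, and 1 each for GPI and PKM. The genes shown were picked by their fold changes or matches, so a relation between the 2 was not tested. The start used for the only PGAM1 window lies 1658 bases inside the 5' end of the gene in GENCODE release 29. The bases at that end were therefore not searched for PGAM1. For HK2 the start of the window given lies 1189 bases inside the 5' end. The other HK2 window, with its start at 146 bases, held 3 matches and 0 copies of CACGTG. For PFKP the start of the window with 3 matches lies 38276 bases inside the 5' end. The PFKP windows with starts at 1637, 2294 and 2856 bases held 0, 0 and 1 matches. A match shows the letters only, not binding.

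Levels per length were compared on the TPM scale. Together the 10 genes held 0.400, 0.415 and 0.399% of the TPM of knockdown libraries 1, 2 and 3, against 0.445, 1.35 and 0.641% in control libraries 1, 2 and 3. On this scale 5 of the 10 genes, HK2, GPI, PGK1, ENO1 and LDHA, had every knockdown value below every control value, and 5, PFKP, ALDOA, TPI1, PGAM1 and PKM, overlapped, with control library 1 below every knockdown library. With mitochondrially encoded genes left out and each library rescaled, a setting chosen after seeing the data, 8 of 10 did not overlap, while PFKP and PGAM1 still did. The share of all genes without overlap is not given for these 2 TPM scales. The counts of 5 and 8 therefore cannot be read as unusual for the enzymes. In that setting 2 of the 10, HK2 and LDHA, passed the limma test, against 1.80% of all genes called lower. The sum of the 10 was then 0.446 to 0.460% in knockdown libraries, against 0.692, 1.44 and 0.663% in control libraries 1, 2 and 3. LDHA averaged 252 ± 19.1 TPM in knockdown and 1361 ± 899 TPM in control libraries, ENO1 1007 ± 41.01 TPM in knockdown and 2314 ± 1283 TPM in control libraries and HK2 12.3 ± 0.789 TPM in knockdown and 25.7 ± 6.97 TPM in control libraries (SD, n = 3 each).

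The make-up of the pathway differed as well, in a measure that does not depend on library scaling. Of the summed TPM of the 10 genes, LDHA held 6.23 ± 0.326% in knockdown and 16.5 ± 2.48% in control libraries (SD, n = 3 each), and ENO1 held 24.9 ± 0.463% in knockdown and 28.8 ± 1.16% in control libraries. PKM held 18.9 ± 0.245% in knockdown and 14.1 ± 1.96% in control libraries, ALDOA 14.8 ± 0.164% in knockdown and 11.4 ± 1.74% in control libraries and PGAM1 5.82 ± 0.149% in knockdown and 4.09 ± 0.171% in control libraries. The groups did not overlap for these 5 genes nor for PFKP and TPI1, while HK2, GPI and PGK1 overlapped; with 3 against 3 libraries the exact 2-sided permutation test cannot go below p = 0.1, the value reached by all 7 (0.143 adjusted over the 10 shares). Shares of a whole move against each other, so a larger share of PKM is not a higher level of PKM.

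Isozymes of the same step were compared through the share of the step's TPM that the core gene held. At the lactate dehydrogenase step, LDHA held 22.3, 23.3 and 22.6% in knockdown libraries 1, 2 and 3, against 53.1, 66.3 and 40.00% in control libraries 1, 2 and 3, the rest being mostly LDHB, the heart-type subunit. LDHB thus outweighed LDHA in each knockdown library and in control library 3, but not in control libraries 1 and 2. LDHB stood at 741, 779.5 and 745 CPM in knockdown libraries 1, 2 and 3, against 985, 1102 and 1149.8 CPM in control libraries 1, 2 and 3, without overlap and without passing (log2 fold change -0.52, SE 0.130, edgeR adjusted p = 0.0540). At the hexokinase step, HK2 held 60.7, 58.3 and 54.5% in knockdown libraries 1, 2 and 3, against 76.9, 83.4 and 76.8% in control libraries 1, 2 and 3. HK1, the constitutive hexokinase of most tissues, overlapped between the groups (log2 fold change 0.30, SE 0.237, edgeR adjusted p = 0.479).

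At the phosphofructokinase step, PFKP held 51.7, 52.1 and 52.5% in knockdown libraries 1, 2 and 3, against 55.9, 57.2 and 56.98% in control libraries 1, 2 and 3, with PFKL and PFKM sharing the rest (log2 fold change -0.42, SE 0.284, edgeR adjusted p = 0.408; log2 fold change -0.00, SE 0.173, edgeR adjusted p = 0.997). At the enolase step, ENO1 held 91.4, 91.5 and 91.2% in knockdown libraries 1, 2 and 3, against 95.9, 95.8 and 95.7% in control libraries 1, 2 and 3, and ENO2, the neuronal enolase, made up most of the remainder (log2 fold change -0.20, SE 0.334, edgeR adjusted p = 0.763), with the muscle enolase ENO3 far behind (log2 fold change 0.12). ALDOA was nearly the whole of its step, at 99.7 ± 0.106% in knockdown and 98.99 ± 0.232% in control libraries, with the brain-type ALDOC at 1.83 ± 0.424 CPM in knockdown and 8.69 ± 6.39 CPM in control libraries (log2 fold change -2.25, SE 0.570, edgeR adjusted p = 0.0540). PGK1, PGAM1 and PKM each held over 99% of their step in every library. The shares of HK2, PFKP, ALDOA, ENO1, PKM and LDHA did not overlap between the groups (exact permutation p = 0.1, the smallest possible; 0.133 adjusted over 8 steps). Of the 7 tested isozymes outside the core, 0 were called by edgeR.

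**Figure D4:**
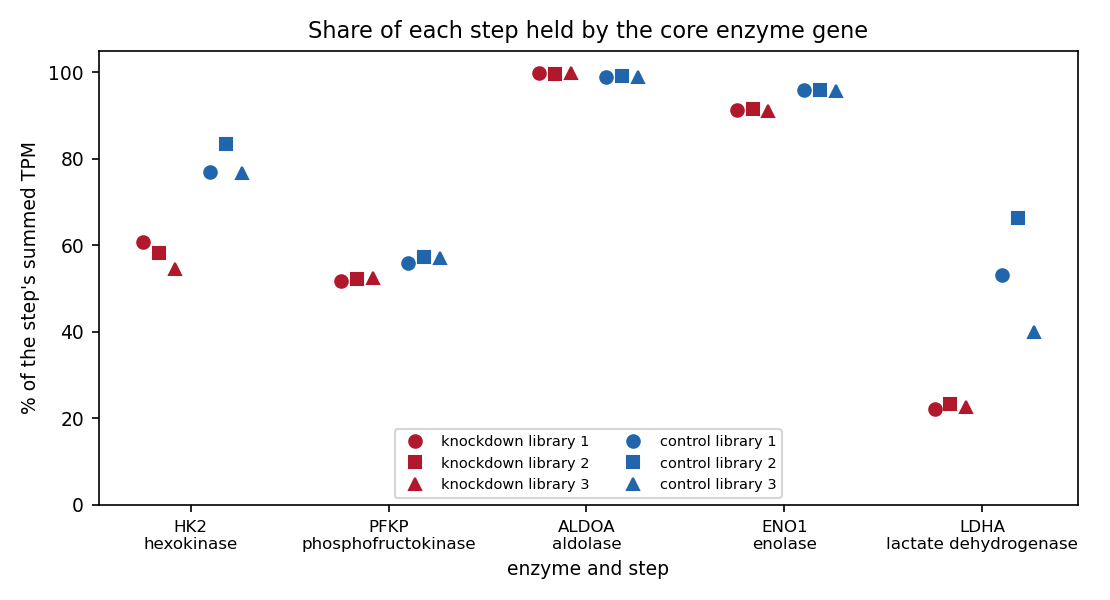
Share of the summed TPM of a step held by the core enzyme gene, in % (axis from 0), in 3 knockdown libraries (red) and 3 control libraries (blue), for the 5 steps with a second isozyme detected at 1 TPM or more on average. The LDHA share is 22.3 to 23.3% in knockdown and 40.0 to 66.3% in control libraries, and the HK2 share is also lower in each knockdown library.

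Genes around the pathway were read from lists of pathway genes, beside the 3.72% of all genes called lower and 4.59% called higher. Of the 22 genes of all other lists that passed, host markers included, only KLF4 also passed without each knockdown library in turn. Of 5 tested flux regulators none was called (median log2 fold change -0.38). PFKFB3, which makes the phosphofructokinase activator fructose 2,6-bisphosphate, had values above every control (log2 fold change 0.57, SE 0.146, edgeR adjusted p = 0.0548). PFKFB4, of the same family, had values below every control (log2 fold change -1.21, SE 0.468, edgeR adjusted p = 0.154). TIGAR, whose product lowers fructose 2,6-bisphosphate, also had values below every control (log2 fold change -0.50, SE 0.186, edgeR adjusted p = 0.141). PFKFB2 (-0.16) and BPGM (-0.38) overlapped between the groups. Of 14 genes of pyruvate entry into mitochondria, 3 fell and none rose (median -0.32). They were PDK4 and PDK1, kinases that switch off pyruvate dehydrogenase (log2 fold change -2.42, SE 0.501, edgeR adjusted p = 0.0297; log2 fold change -0.88, SE 0.184, edgeR adjusted p = 0.0301), and PDHX, a structural subunit of that complex (log2 fold change -0.80, SE 0.167, edgeR adjusted p = 0.0298). PDHA1, the most abundant of the list, had a log2 fold change of -0.28 and did not pass. The 3 did not pass without control library 1 (edgeR adjusted p = 0.0510 for PDHX, 0.0572 for PDK1 and 0.0695 for PDK4).

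Genes that feed or leave the pathway were lower in part. Of 20 tested genes of sugar entry, glycogen and hexosamine branches, 4 fell and none rose (median -0.39). Of 3 glycogen phosphorylase genes, PYGB and PYGL were among them and PYGM did not pass (log2 fold change 0.52, edgeR adjusted p = 0.653). PYGB averaged 190.0 ± 6.59 CPM in knockdown and 507 ± 118 CPM in control libraries (SD, n = 3 each; log2 fold change -1.42, SE 0.190, edgeR adjusted p = 0.00879), and PYGL fell by 0.82 on the log2 scale (edgeR adjusted p = 0.0306). The others were GBE1, the glycogen branching enzyme (log2 fold change -0.78, SE 0.143, edgeR adjusted p = 0.0220), and UAP1, which makes UDP-N-acetylglucosamine, a sugar donor for N-glycans (log2 fold change -0.68, SE 0.117, edgeR adjusted p = 0.0185). Of 7 tested pentose phosphate genes, TKT, the transketolase that links this branch with glycolysis, fell (log2 fold change -0.82, SE 0.136, edgeR adjusted p = 0.0160).

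Of 4 tested gluconeogenesis genes, PC, the pyruvate carboxylase, fell (log2 fold change -0.65, SE 0.150, edgeR adjusted p = 0.0408), and PCK2 (log2 fold change -0.61) and G6PC3 (-0.19) did not pass. PCK1 went the other way without passing (log2 fold change 2.40, SE 1.08, edgeR adjusted p = 0.210). Its CPM lay above every control but was low, with means of 5.76 CPM in knockdown and 1.16 CPM in control libraries. None of 5 tested genes of the glycerol and serine branches was called, with log2 fold changes of -0.81 for PSPH, -0.56 for GPD2 and -0.65 for PHGDH. PYGL and PC did not pass without control library 1 (edgeR adjusted p = 0.0525 and 0.0796).

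Transporters, hypoxia targets and regulators gave mixed values. Of 7 tested glucose and lactate transporter genes, SLC2A3 rose (log2 fold change 0.58, SE 0.142, edgeR adjusted p = 0.0497), with an edgeR adjusted p of 0.0558 and 0.0829 when control library 1 or 3 was left out. For 6 of the 7 the log2 fold change was below 0, and none of these passed. They included SLC2A1, the widespread glucose transporter (log2 fold change -1.27, SE 0.328, edgeR adjusted p = 0.0562), and BSG, the chaperone of lactate transporters (log2 fold change -0.18, SE 0.172, edgeR adjusted p = 0.555). SLC16A3 had the largest difference, with values below every control (log2 fold change -2.50, SE 0.690, edgeR adjusted p = 0.0664). Of 20 hypoxia targets outside glycolysis, 4 fell and none rose (median -0.39): CA9, ANGPTL4, NDRG1 and P4HA1. The log2 fold change was below 0 for 15 of the 20. The others, none of which passed, were VEGFA (0.10, with values above every control), P4HA2 (0.0012), MXI1 (0.27), LOX (0.60) and INSIG2 (0.06). NDRG1, a stress gene induced by low oxygen, stood at 82.1, 95.7 and 76.3 CPM in knockdown libraries 1, 2 and 3, against 425, 1047 and 171 CPM in control libraries 1, 2 and 3, the same order of controls as LDHA (log2 fold change -2.69, SE 0.587, edgeR adjusted p = 0.0346; 3.52-fold lower without control library 2). CA9, a carbonic anhydrase widely used as a hypoxia marker, stood at 0.199, 0.891 and 0.518 CPM in knockdown libraries 1, 2 and 3, against 10.4, 32.3 and 6.17 CPM in control libraries 1, 2 and 3 (log2 fold change -4.92, SE 0.802, edgeR adjusted p = 0.0153; 15.4-fold lower without control library 2, against 30.3-fold with it). ANGPTL4 was 21.7-fold lower (edgeR adjusted p = 0.0245; 7.72-fold when control library 2 was left out). P4HA1, a collagen prolyl hydroxylase, was 3.01-fold lower (edgeR adjusted p = 0.0298; 2.19-fold without control library 2). NDRG1 and P4HA1 did not pass without control library 1 (edgeR adjusted p = 0.0608 and 0.0576).

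Of 10 transcription factors of glycolytic genes, KLF4 rose and the others did not pass (median 0.14). KLF4 stood at 170.0, 169 and 169 CPM in knockdown libraries 1, 2 and 3, against 34.8, 29.2 and 38.5 CPM in control libraries 1, 2 and 3 (log2 fold change 2.31, SE 0.147, edgeR adjusted p = 0.000981). MYC averaged 795 ± 24.2 CPM in knockdown and 439 ± 205 CPM in control libraries (log2 fold change 0.86, SE 0.332, edgeR adjusted p = 0.153) and MLXIP, a glucose-sensing factor, 96.9 ± 5.39 CPM in knockdown and 63.3 ± 10.3 CPM in control libraries (log2 fold change 0.61, SE 0.157, edgeR adjusted p = 0.0550). Both had knockdown values above every control value. The genes of the hypoxia-inducible factor alpha subunits, named after their values were seen, did not pass, with knockdown values below every control value. EPAS1 stood at 74.9, 71.1 and 69.6 CPM in knockdown libraries 1, 2 and 3, against 206, 413 and 88.5 CPM in control libraries 1, 2 and 3 (log2 fold change -1.71, SE 0.480, edgeR adjusted p = 0.0693). HIF1A stood at 109, 116 and 111 CPM in knockdown libraries 1, 2 and 3, against 193, 119 and 158 CPM in control libraries 1, 2 and 3 (log2 fold change -0.49, SE 0.187, edgeR adjusted p = 0.150). The remaining 5 genes of the list overlapped between the groups.

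Reads shared with copies and neighbours limit these values. The tables listed 36 pseudogene copies of the enzyme genes by symbol, 23 of them above 0 TPM in some library. Copies made up at most 2.58% of parent plus copies for PGAM1, mostly PGAM1P2, and at most 1.78% for PGK1, from PGK1P2. For the others with listed copies the share stayed under 0.5%, with 0.485% for PKM the highest. Adding the counts of the copies to their parents left the same 3 genes called. In GENCODE release 29, exons of 7 of the 10 genes overlap those of another gene, 4 of them (HK2, ALDOA, TPI1 and ENO1) on the opposite strand, and whether counting used strand is unknown here. The most abundant of these neighbours was SPSB2, which overlaps TPI1, at a mean of 7.13 TPM, and the exons of PGAM1, PKM and LDHA overlap none.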

How the data were processed

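Total RNA of 6 libraries was sequenced, from 200 ng each, per the labels' protocols. The submitters' processing notes name GRCh38, Salmon, fastp and DESeq2, without versions or roles; the annotation and any removal of mouse reads are not stated in them. The authors deposited estimated counts per gene, already whole numbers, and TPM values. The members, lists, tests and alternatives were chosen with earlier results of these data known. Knockdown columns carry an abbreviation for knockout and were matched by group and number.

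The main test was edgeR 4.0.16 (R 4.3.3): quasi-likelihood F-test, filterByExpr (2073 of 21503 genes removed), TMM, no covariate, 2-sided, Benjamini-Hochberg over 19430 genes at 0.05; SE came from the F statistic. Alternatives used DESeq2 1.42.0, limma 3.58.1 (voom with quality weights by group; trend on log2(TPM + 1) or log2(TPM + 0.1) with a mean of at least 1 TPM, fold changes of low genes being understated), other scalings and filters, a replicate block, added copies and left-out libraries. Shares used exact permutation tests. Named were the 10 enzymes, other isozymes of at least 1 TPM, and of each list the 2 smallest p and the highest TPM. Further genes, passing or not, were named after their values were seen. 1 gene that this rule names is not reported here. On simulated counts of 19430 genes in 3 knockdown and 3 control libraries, 8.51% of 1-unit and 52.8% of 2-unit log2 changes were recovered. A single count weighed most in control library 3, the shallowest; the lowest count of any of the 10 enzymes was 1183. Log2 CPM used a prior count of 2. Nearest genes needed a mean of 10 CPM.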

Additional observations from a re-analysis of the deposited data

How the results depend on the processing

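All 10 enzyme genes kept a negative log2 fold change under each of the 18 alternatives; which of them passed varied. Of the enzymes, 3 were called lower in the main test. The count was 7 by the DESeq2 Wald test, 7 by limma-voom with quality weights, 1 on log2(TPM + 1), 1 on log2(TPM + 0.1), 0 on log2(TPM + 1) without a filter, and 0 to 7 when a library was left out. LDHA passed under 14 of the 18, HK2 under 12 and ENO1 under 10. Of all genes, 722 were called lower and 892 higher: lower 1768, 77, 56 and 3 and higher 1908, 751, 470 and 43 by DESeq2 and in the 3 TPM settings, and 9 to 2796 lower and 53 to 2808 higher when a library was left out. On TPM rescaled without mitochondrial genes, chosen after seeing the data, 288 genes were lower. Of the genes in the other pathway lists, 14 were lower and 2 higher: lower 30, 23 and 23 by DESeq2, by limma-voom and with at least 5 CPM, 4, 4, 0 and 6 in the 3 TPM settings and the rescaled one, and 0 to 39 when a library was left out. Higher were 4 by DESeq2, 4 with at least 5 CPM, 1 with DESeq2 size factors, 1 without a filter, 1, 1 and 1 in the TPM settings, and 1 to 10 when a library was left out. The cause was not tested. The PGAM1 share of its step differed by -0.00986 percentage points and by -0.0619 to 0.0182 when a library was left out, a change of sign smaller than its SD of 0.0902 in control libraries; the other shares kept their direction. On estimated counts, shares of PGK1, PGAM1 and PKM could not be computed because their isozymes are not among the counted genes used. The TPM settings put the median of all genes at 0.23 on log2(TPM + 1), against 0.03 in the main test, so fold changes there are relative to that shift. The lowest count of any enzyme was 1183.

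Same-numbered libraries of the groups did not deviate together (correlations across genes -0.0620 to 0.0202). Knockdown libraries varied little (biological coefficient of variation 10.7%, against 52.3% in control libraries). These correlations therefore cannot decide whether the numbers mark pairs. With the replicate block 2 enzymes (HK2 and LDHA), 214 genes lower and 352 higher, and 5 lower and 1 higher list genes were called. For the 6 shares without overlap, the exact permutation test that flips the signs of the 3 paired differences gave p = 0.25, the smallest it can give, against p = 0.1 in the unpaired exact permutation test.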
